A study of Mus musculus with 24 samples.

Results

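The genes described here are 9 markers of neural progenitors and radial glia, Nes, Fabp7, Slc1a3, Sox1, Sox3, Pou3f2, Pou3f3, Msi1 and Prom1. They were taken by name from the RNAseq tables of mouse ESCs (embryonic stem cells) and of the NPCs (neural progenitors) made from them, and all 9 were among the 21909 gene symbols of these tables. The study mapped nucleolar associated domains (NADs), genomic regions that contact the nucleolus, and measured RNA in ESCs and NPCs. RNAseq comprised 3 ESC and 3 NPC samples, each from an independent culture dish. ESCs were E14 cells kept in medium with LIF and the 2 inhibitors of the 2i condition. NPCs were derived from ESCs through embryoid bodies over 8 days in serum, with 2 µM retinoic acid during the last 4 days, and the sources used here name no sorting step for them. The labels name no knockout or knockdown for the RNAseq samples. NADs were mapped in other cells, ESC lines with H2B-Dam or H2B-Dam-NoLS transgenes induced with doxycycline and Shield1, and NPCs from these lines that were dissociated and plated again for the induction.

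Neural progenitors divide and give rise to neurons and glia. In the embryonic brain the early neuroepithelial cells become radial glia, which span the wall of the neural tube and keep an intermediate filament network, glutamate transporters and lipid-binding proteins that are also used by astrocytes. Transcription factors of the SoxB1 and class III POU families are active in these cells, and retinoic acid is widely used to direct embryoid bodies towards neural fates.

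The tables give RPKM, reads per kilobase of gene per 1e6 reads. The values fell on whole multiples of 1 step per sample when multiplied by the length of the whole gene, introns included. With the gene span of GENCODE M21 less 1 base, between 96.4% and 96.7% of values under 50 reads lay within 0.05 of a whole number of reads, against 13.9% to 14.5% with the summed exon length less 1 base. The steps correspond to read totals, in units of 1e6, of 34.1, 33.7 and 30.8 for the ESC samples (replicates 1 to 3) and of 30.2, 27.3 and 32.3 for the NPC samples. The same step held for each sample on its own, and the ESC and NPC tables used the same gene lengths. Genes with long introns therefore have low RPKM and can fail a filter on RPKM in spite of many reads. RPKM values below refer to the gene span and compare samples for 1 gene. Levels of different genes, and sums over lists, are given as exonic levels, the recovered reads per kilobase of exon per 1e6 reads. These levels take all recovered reads as exonic, which was not tested. If intronic reads were counted, genes with long introns would be placed too high in orders and sums.

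ESC replicate 3 stood apart from the other ESC samples. Across the 18360 genes above 0 in any sample, its log2(RPKM + 1) values had a correlation of 0.977 with ESC replicate 1 and 0.979 with ESC replicate 2, whereas these had 0.999 with each other. The NPC samples had correlations between 0.998 and 0.999. ESC replicate 3 also had the highest summed RPKM, 141243 against 105011 and 106892 in ESC replicates 1 and 2. For the 6 markers tested below, differences are therefore given with and without this sample; other values include it unless stated.

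All 9 genes had higher RPKM in each NPC sample than in any ESC sample. The same held for 45.5% of the 18360 genes above 0 in any sample, and 27.4% had lower RPKM in each NPC sample than in any ESC sample, so a separation of this kind was common in this comparison. Of the 9 genes, 6 reached 1 RPKM in at least 3 samples and were tested with limma on log2(RPKM + 1). These 6 were called higher in NPCs at a Benjamini-Hochberg adjusted p under 0.05 over 7835 genes, beside 36.9% of all genes tested, and 0 were called lower, beside 33.3%; all 6 differences were positive, so 0 were lower at an unadjusted p under 0.05 as well. Without ESC replicate 3 the same 6 genes were called higher, beside 43.9% of all genes tested. Fabp7, Slc1a3 and Prom1 stayed under the filter, and introns make up most of the span of all 3. A filter of this kind sets the direction of genes that pass it through 1 group only. Of the 7835 genes, 1345 (17.2%) were under 1 RPKM in all ESC samples and passed through NPCs only, and 553 (7.06%) were under 1 RPKM in all NPC samples and passed through ESCs only. Among the 6 tested markers Sox1, Sox3, Pou3f2 and Pou3f3 passed through NPCs only. The filter set their direction, so these counts, and the adjusted p of these genes in this fit, are a description. In bulk RNA, fewer cells of a type and less RNA per cell cannot be told apart.

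**Figure D1:**
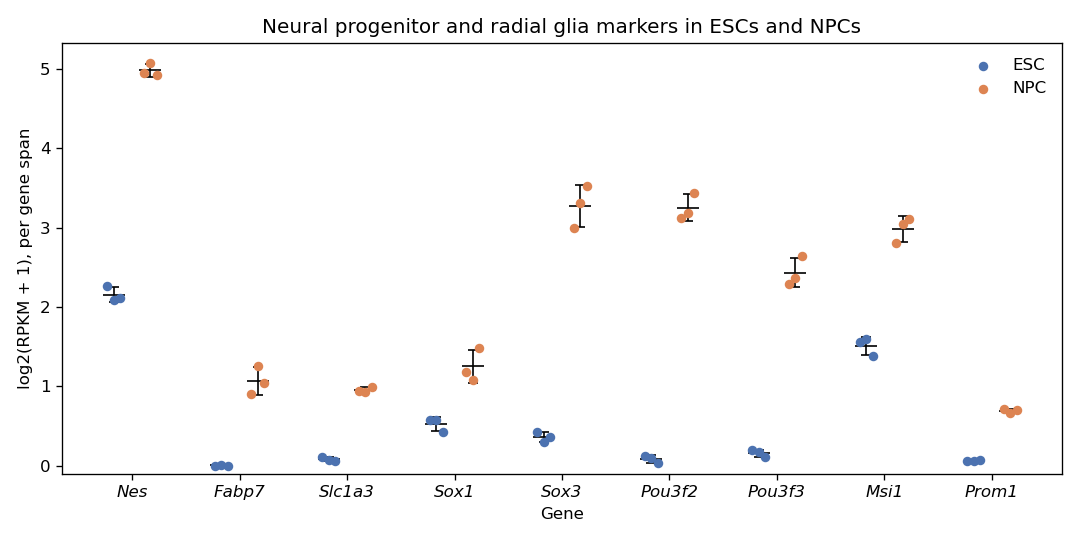
Expression of the 9 markers as log2(RPKM + 1), with RPKM per gene span, in 3 ESC and 3 NPC samples; points are samples, horizontal bars are group means and error bars are 1 SD. Each NPC sample lies above all ESC samples of the same gene; levels of different genes cannot be compared on this axis, because introns count in the length.

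Nes encodes nestin, an intermediate filament protein of dividing neural progenitors. Its RPKM was 3.79, 3.25 and 3.33 in the ESC samples and 29.8, 32.7 and 29.4 in the NPC samples, in the order of replicates 1, 2 and 3 that is kept throughout. The groups were far apart and the NPC samples lay close to each other, while ESCs already held clear amounts of this RNA, with 960 to 1210 reads per sample. The mean rose 8.85-fold, from 3.46 ± 0.292 to 30.6 ± 1.79 RPKM (SD, n = 3 each). The fitted difference was 2.83 ± 0.0939 (SE) on the log2(RPKM + 1) scale, with an adjusted p of 7.16e-07 (limma, Benjamini-Hochberg), and it was 2.81 without ESC replicate 3.

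Msi1 encodes Musashi-1, an RNA-binding protein that regulates translation in neural stem cells. It was measured at 1.94, 2.02 and 1.61 RPKM in the ESC replicates and at 5.97, 7.24 and 7.64 RPKM in the NPC replicates. ESC replicate 3 and NPC replicate 1 were the lowest of their groups, and the groups did not overlap. The mean was 3.74-fold higher in NPCs, 6.95 ± 0.871 against 1.86 ± 0.220 RPKM (SD, n = 3 each). The log2 difference was 1.47 ± 0.112 (SE), with an adjusted p of 3.81e-05 (limma, Benjamini-Hochberg), and 1.41 without ESC replicate 3. An annotated antisense transcript, 4930430O22Rik, lies inside Msi1, and reads from it were not told apart from those of Msi1. The methods name a stranded library kit and the sample labels another kit, and whether strand was used in counting is not given.

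Prom1 encodes prominin-1 (CD133), a membrane glycoprotein found on protrusions of neuroepithelial cells. Its gene spans 108413 bases with 7175 bases of exon, and its RPKM was 0.0428, 0.0459 and 0.0494 in the ESC replicates and 0.634, 0.587 and 0.621 in the NPC replicates. These low numbers stood for many reads, 158, 168 and 165 in ESCs and 2073, 1736 and 2176 in NPCs. Both groups were tight and NPCs were 13.3-fold higher in mean RPKM. Prom1 was under the filter of the RPKM test. In tests chosen after seeing the data, it was called higher per kilobase of exon, with an adjusted p of 3.17e-07, and with limma voom on the recovered reads, with an adjusted p of 1.06e-06 (both limma, Benjamini-Hochberg). An antisense transcript, Gm16401, overlaps its annotated start, and Gm42716 lies inside Prom1 on the same strand, so reads may be shared.

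Slc1a3 encodes the glutamate transporter GLAST of radial glia and astrocytes. Its RPKM was 0.0763, 0.0549 and 0.0394 in the ESC replicates and 0.924, 0.908 and 0.992 in the NPC replicates. ESC replicate 3 was the lowest of all 6 samples, and the NPC samples were close together. Mean RPKM was 16.6-fold higher in NPCs, with 434 reads in all ESC samples together and 6489 in all NPC samples. An annotated transcript on the same strand, Gm37310, lies inside Slc1a3, and reads may be shared with it. Slc1a3 was also under the RPKM filter, with a span 8.98 times its exon length. Per kilobase of exon the log2 difference was 2.65 ± 0.102 (SE), with an adjusted p of 9.75e-07 (limma, Benjamini-Hochberg).

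Fabp7 encodes brain lipid-binding protein, a fatty acid carrier of radial glia. Its RPKM was 0, 0.00831 and 0 in ESC replicates 1, 2 and 3, which is a single read in replicate 2. In NPC replicates 1, 2 and 3 it was 0.864, 1.39 and 1.07, or 93, 135 and 123 reads. Fabp7 was thus nearly undetected in ESCs and present at a modest level in every NPC sample. The ratio of reads per total reads was 386, with an exact 95% interval of 68.8 to 15275 that covers counting error only and is wide because of the single ESC read. Per kilobase of exon it was called higher with a log2 difference of 2.03 ± 0.126 (SE) and an adjusted p of 1.02e-05 (limma, Benjamini-Hochberg).

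All 9 markers were tested in these added tests, and 9 were called higher in each. Per kilobase of exon 7 of them, those other than Nes and Msi1, passed the filter through NPCs only, and on recovered reads Fabp7 did, so the direction of these genes was set by the filter. Over all genes, 43.1% of 11809 were called higher and 29.6% lower per kilobase of exon, and 45.9% of 14541 were called higher and 28.1% lower on recovered reads. With no filter on low values 9 of 9 markers were also called higher, beside 39.5% of 18360 genes called higher and 22.9% called lower; this fit kept all genes above 0 in any sample.

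Sox1 and Sox3 encode transcription factors of the SoxB1 group, which keep neural progenitors undifferentiated. Sox1 was measured at 0.486, 0.491 and 0.343 RPKM in the ESC replicates and at 1.27, 1.12 and 1.81 RPKM in the NPC replicates. NPC replicate 3 was well above the other NPC samples, and the fold between the group means was the smallest among the 9 genes. The mean rose 3.18-fold, from 0.440 ± 0.0841 to 1.4 ± 0.363 RPKM (SD, n = 3 each). The log2 difference was 0.73 ± 0.110 (SE), with an adjusted p of 0.00118 (limma, Benjamini-Hochberg), and 0.68 without ESC replicate 3. After quantile normalization it was 0.26, with an adjusted p of 0.123 (limma, Benjamini-Hochberg), and no longer called, so that 5 of 6 markers were called higher there, beside 34.1% of all genes tested, and 0 lower, beside 38.2%. Over the other settings in which Sox1 was fitted its adjusted p ranged from 0.000731 to 0.0059 (limma, Benjamini-Hochberg). The longer transcript Sox1ot overlaps Sox1 on the same strand, so reads may be shared between them.

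Sox3 was measured at 0.341, 0.230 and 0.283 RPKM in the ESC replicates and at 7.01, 8.89 and 10.5 RPKM in the NPC replicates. NPC samples differed more relative to their mean than for Nes, with replicate 3 the highest, but lay far above the ESC samples. Mean RPKM was 30.9-fold higher in NPCs, 8.80 ± 1.76 against 0.285 ± 0.0558 (SD, n = 3 each). The log2 difference was 2.92 ± 0.138 (SE), with an adjusted p of 3.61e-06 (limma, Benjamini-Hochberg), and 2.92 without ESC replicate 3. Both Sox1 and Sox3 passed the filter through NPCs only, so their direction in this test was set by the filter.

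Of the 5 genes of the SoxB family 4 were tested, and Sox1 and Sox3 were called higher, beside 36.9% of all genes tested, and Sox2 and Sox21 lower, beside 33.3%. Sox2, which acts in pluripotent cells as well as in neural progenitors, had 157, 154 and 142 RPKM in the ESC replicates and 6.82, 8.56 and 9.91 RPKM in the NPC replicates. It fell by 4.02 on the log2 scale, so that in NPCs Sox2 and Sox3 had overlapping ranges of RPKM, both from genes without introns. Sox21 was also lower in NPCs, with a mean of 0.931 against 2.19 RPKM. Sox14 was listed at 0 in all NPC samples and had 4 reads in the ESC samples together.

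Pou3f2 and Pou3f3 encode the class III POU factors BRN2 and BRN1, which bind octamer-like sites and act in cortical progenitors and neurons. Pou3f2 was measured at 0.0841, 0.0743 and 0.0233 RPKM in the ESC replicates, from 16, 14 and 4 reads. In the NPC replicates it reached 7.74, 8.12 and 9.87 RPKM, from 1303, 1237 and 1781 reads. All ESC samples were near 0, and the 142-fold difference in mean RPKM rests on few ESC reads. The log2 difference was 3.17 ± 0.0980 (SE), with an adjusted p of 5.46e-07 (limma, Benjamini-Hochberg), and 3.14 without ESC replicate 3.

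Pou3f3 was measured at 0.143, 0.124 and 0.0746 RPKM in the ESC replicates and at 3.88, 4.16 and 5.22 RPKM in the NPC replicates. As for Pou3f2, ESC replicate 3 was the lowest and NPC replicate 3 the highest sample. Mean RPKM was 38.9-fold higher in NPCs. The log2 difference was 2.28 ± 0.0987 (SE), with an adjusted p of 2.36e-06 (limma, Benjamini-Hochberg), and 2.25 without ESC replicate 3. For Pou3f2 and Pou3f3 the filter, passed through NPCs only, also set the direction in this test. A longer annotated transcript overlaps Pou3f3 on the same strand, and reads may be shared with it.

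All 4 class III POU genes were called higher, beside 36.9% of all genes tested. All 4 passed the filter through NPCs only, so the count is a description; limma voom on recovered reads also called 4 of 4 higher, beside 45.9%, of which Pou3f4 passed its filter through NPCs only. Pou3f1 rose from a mean of 0.131 to 2.3 RPKM, with 3.04, 2.28 and 1.57 RPKM in NPC replicates 1, 2 and 3. Its highest NPC sample was replicate 1, unlike the other genes of the family. Pou3f4 rose from a mean of 0.0171 to 3.76 RPKM, with 4.52 RPKM in NPC replicate 3.

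**Figure D2:**
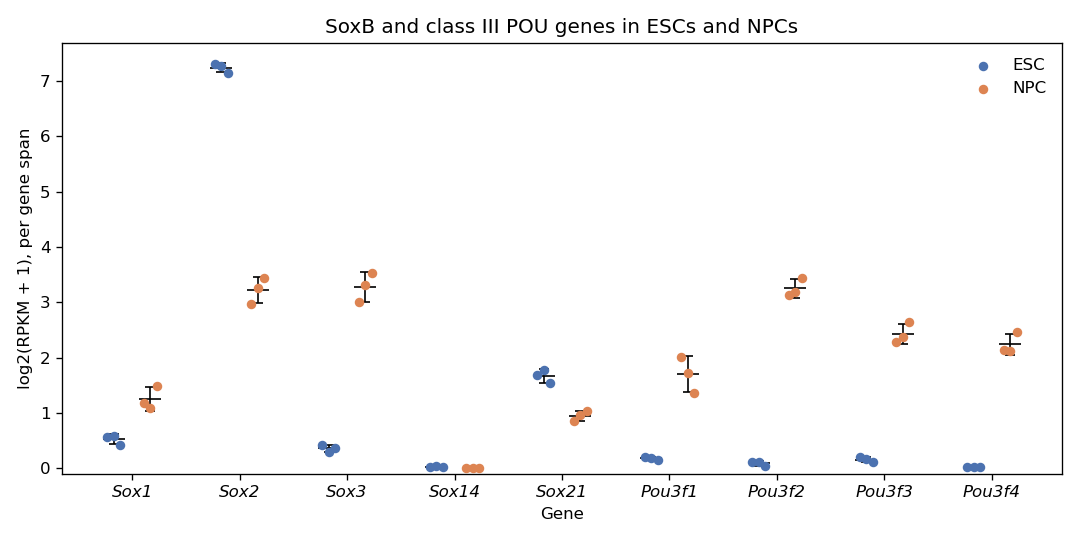
Expression of the 5 SoxB and 4 class III POU genes as log2(RPKM + 1), with RPKM per gene span, in 3 ESC and 3 NPC samples; points are samples, horizontal bars are group means and error bars are 1 SD. Sox2 and Sox21 are lower in NPCs, Sox1, Sox3 and all 4 POU genes are higher, and Sox14 is near 0 in both.

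NPC replicate 3 was the highest NPC sample for 6 of the 9 markers, beside 28.7% of all genes without ties. ESC replicate 3 was the lowest ESC sample for 5 of the 8 markers without ties, beside 52.0% of all genes without ties.

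Per kilobase of exon, the order of the markers changed between the cell types. In NPCs Nes was highest, with 44.7 ± 2.62 reads per kilobase of exon per 1e6 reads (SD, n = 3), followed by Msi1 with 31.3 ± 3.92. Prom1, Sox3, Pou3f2 and Slc1a3 came next with means of 9.28, 8.80, 8.58 and 8.45, and neighbours in this order had overlapping ranges. Pou3f3, with a mean of 4.42, and Fabp7, with 3.16, also overlapped, and Sox1 was lowest with 1.4. In ESCs Msi1 was highest, with 8.35 ± 0.989 reads per kilobase of exon per 1e6 reads (SD, n = 3), ahead of Nes with 5.05 ± 0.427. The other markers were below 1 in each ESC sample, in the order Prom1, Slc1a3, Sox1, Sox3, Pou3f3, Pou3f2 and Fabp7. Among these, Sox1 and Sox3 as well as Sox3 and Pou3f3 had ranges that did not overlap, while the other neighbours overlapped.

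For each marker the 2 tested genes with the smallest root mean square difference in log2(RPKM + 1) over the 6 samples were found. This measure compares numbers per gene span and depends on intron length: Igdcc3, next to Pou3f3, had a mean exonic level of 55.9 in NPCs against 4.42. The smallest difference was that of Pou3f3 with Igdcc3, at 0.0453. For Nes they were Maged2 (0.143) and Ctxn1 (0.198), and for Msi1 Map7d1 (0.0716) and Guf1 (0.114). Sox1 was most like Mapk8ip2 (0.103) and Unc13a (0.112), and Sox3 most like Sncg (0.143) and Igsf9 (0.180). Pou3f2 was nearest to Foxd2 (0.109) and 5730596B20Rik (0.114), and the other gene near Pou3f3 was Grin2c (0.0820). Fabp7 lay near Cgnl1 (0.0711) and Col9a2 (0.0712). Ppp1r9a and Clmn were given for Slc1a3, at 0.0601 and 0.0696, and for Prom1, at 0.242 and 0.244; both markers were under 1 RPKM in all samples, while a tested gene had to reach 1 RPKM in 3, so the matches were held to the edge of the filter.

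Many genes of the other families and lists were under the RPKM filter, and others passed it through 1 group only. The lists were therefore also counted with limma voom on recovered reads, a test chosen after seeing the data, in which 45.9% of all genes tested were called higher and 28.1% lower at a Benjamini-Hochberg adjusted p under 0.05. Its filter of at least 10 reads in 3 samples was passed through NPCs only by 10.5% of these genes and through ESCs only by 3.91%, and the direction of such genes was set by the filter. In the Slc1a family 2 of 7 genes were tested on RPKM: Slc1a5 was lower in NPCs, with a mean of 1.49 against 8.42 RPKM, and Slc1a4 was not called. Slc1a4 was called lower after quantile normalization and without ESC replicate 3. Limma voom tested 7 and called 3 higher (Slc1a2, Slc1a3 and Slc1a6) and 2 lower (Slc1a1 and Slc1a5). Slc1a2 had 2 reads in the ESC samples together and 1369 in the NPC samples, and passed the read filter through NPCs only. The mean exonic level of Slc1a3 in NPCs, 8.45, was below the 9.69 of Slc1a4.

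In the Fabp family 2 of 9 genes were tested on RPKM, and Fabp5 rose from a mean of 2.64 to 17.1 RPKM while Fabp3 fell from 8.53 to 0.188 RPKM. Fabp3 passed the filter through ESCs only. Limma voom tested 4 and called Fabp4, Fabp5 and Fabp7 higher and Fabp3 lower; Fabp4, with 0 reads in the ESC samples and 491 in the NPC samples together, and Fabp7 passed the read filter through NPCs only. Fabp5 had the highest mean exonic level of the family in NPCs, 19.4, followed by Fabp7 with 3.16. Among the Musashi and Prominin genes, limma voom called 4 of 4 higher, beside 45.9% of all genes tested. Prom2 passed the read filter through NPCs only. Msi2 had 8415 reads in the ESC samples together and 18019 in the NPC samples, and Prom2 had 0 and 217. The ESC reads of Msi2 were 3759, 3687 and 969 in replicates 1, 2 and 3. Its adjusted p was 0.0290 (limma voom, Benjamini-Hochberg).

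Among 9 neural intermediate filament genes 4 were tested on RPKM and 3 were called higher, beside 36.9% of all genes tested. The 3 were Nes, itself a marker, Ina and Nefl, and Nefl was not called after quantile normalization. Limma voom tested 8 and called 4 higher and 1, Nefh, lower, beside 45.9% and 28.1% of all genes tested. Vim, a filament protein of radial glia and of many mesenchymal cells, had 35.3, 37.4 and 45.9 RPKM in the ESC replicates and 44.0, 44.0 and 48.8 RPKM in the NPC replicates. It was not called, but it was called higher after rescaling to TPM, after quantile normalization and without ESC replicate 3. Gfap, which marks astrocytes, had 11 reads in the ESC samples together and 20 in the NPC samples.

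Of 20 other radial glia and progenitor genes 10 were tested on RPKM, 3 were called higher and 4 lower, beside 36.9% and 33.3% of all genes tested. The 3 called higher, Sox9, Hes5 and Pax6, passed the filter through NPCs only, and Ttyh1, called lower, through ESCs only. In limma voom 19 were tested, 11 were called higher and 5 lower, beside 45.9% and 28.1%, and 5 of the 11 passed the read filter through NPCs only. Sox9 had 9.92, 10.8 and 10.5 RPKM in the NPC replicates and a mean of 0.0204 in ESCs. Hes5, a Notch target, had 0 reads in ESCs and 414 in NPCs.

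Pax6, a transcription factor of radial glia, rose from a mean of 0.0115 to 1.55 RPKM. Sox2, Sox21, Id4 and Ttyh1 were called lower, and Hes1, Notch1 and Vim were not called; Hes1 was called higher after rescaling to TPM. Several genes under the RPKM filter also differed. Gpm6b had 7 reads in the ESC samples together and 1132 in the NPC samples, and Rfx4 had 80 and 1061; both were called higher with limma voom. Ptprz1, with 105 and 530 reads, was called higher there and Hopx, with 127 and 34 reads, lower. Nr2e1 had 0 and 9 reads and was not tested.

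All 12 genes of the pluripotent cell list were called lower, beside 33.3% of all genes tested, and 10 of them passed the filter through ESCs only; limma voom called 12 of 12 lower, beside 28.1%, and 4 of these passed its filter through ESCs only. The list had a summed exonic level of 3937, 3929 and 7339 in the ESC replicates and 20.7, 20.2 and 18.8 in the NPC replicates. Dppa5a had the highest exonic level in ESCs, with a mean of 3473, and Tbx3 in NPCs, with 14.9. Dppa3 was listed at 0 in all NPC samples, and Pou5f1, Nanog and Zfp42 had 23, 34 and 15 reads in these samples together. Tbx3 was not called after rescaling to TPM.

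Of 16 genes of mesoderm, endoderm and mesenchyme, 10 were tested on RPKM and called higher in NPCs, beside 36.9% of all genes tested. All 10 passed the filter through NPCs only. Limma voom tested 15 and called 12 higher and 3 lower, beside 45.9% and 28.1% of all genes tested. Of the 12, 7 passed the read filter through NPCs only, and of the 3, T passed it through ESCs only. The genes called lower were T, Eomes and Mixl1 of early mesoderm and endoderm, with means of 0.959 against 0.0123 RPKM for T and of 0.900 against 0.326 RPKM for Eomes. Mixl1 had 63 reads in the ESC samples together and 24 in the NPC samples.

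The summed exonic level of these 16 genes was 7.47, 7.94 and 5.96 in the ESC replicates and 396, 417 and 416 in the NPC replicates, beside 111, 124 and 126 for the 9 markers in the same NPC samples. Gata4 had the highest exonic level in NPCs, with a mean of 110.0, followed by Col3a1 with 79.2 and Col1a1 with 60.7. These means were above that of Nes, 44.7, the highest of the 9 markers. Foxf1, with 41.6, had 0 reads in ESCs. The order depends on the length used. Per gene span the NPC mean was 30.6 RPKM for Nes, above 5.90 for Gata4, 20.4 for Col3a1 and 23.7 for Col1a1. The NPC samples held RNA of neural markers together with RNA of markers of mesoderm, endoderm and mesenchyme. The part of other cells in the levels of the 9 markers was not tested.

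Of 8 genes of endothelium and blood 3 were tested on RPKM and called higher, beside 36.9% of all genes tested. All 3 passed the filter through NPCs only. Limma voom tested 8 and called 5 higher and 1 lower, beside 45.9% and 28.1% of all genes tested. Among the 5, 4 passed the read filter through NPCs only. The gene called lower was Pecam1, an endothelial marker also present in ESCs, with means of 1.10 RPKM in ESCs and 0.433 RPKM in NPCs. The summed exonic level was 23.6, 22.8 and 17.2 in the ESC replicates, where Pecam1 was highest, and 60.3, 63.9 and 63.8 in the NPC replicates, where Hbb-y was highest with a mean of 15.2.

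Of 8 neural crest and surface ectoderm genes 3 were tested on RPKM. Snai2 was called higher and Cdh1 and Foxd3 lower, beside 36.9% and 33.3% of all genes tested. Snai2 passed the filter through NPCs only, Cdh1 and Foxd3 through ESCs only. In limma voom 6 were tested, 3 were called higher and 3 lower, beside 45.9% and 28.1% of all genes tested. Among those called higher, 2 passed the read filter through NPCs only. Their summed exonic level was 206, 215 and 125 in the ESC replicates, most of it from Cdh1, and 18.3, 17.1 and 17.1 in the NPC replicates. Snai2 was highest in NPCs, with a mean exonic level of 7.01, and Sox10 had 79 reads in the NPC samples together. The part of these cells in the results was not tested.

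Of 12 neuronal genes 4 were tested on RPKM. Among these, 2 were called higher (Ina and Nefl) and 2 lower (Tubb3 and Stmn2), beside 36.9% and 33.3% of all genes tested. Nefl was not called after quantile normalization, and Tubb3 was not called after rescaling to TPM. Stmn2 passed the filter through ESCs only. Limma voom tested 12 and called 10 higher and 2 lower, beside 45.9% and 28.1%. Tubb3 and Stmn2 were again the genes called lower, and Dcx, Rbfox3 and Syt1 passed the read filter through NPCs only.

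Dcx, a marker of young neurons, had 0 reads in ESCs and 6378 in NPCs. Rbfox3, a marker of mature neurons, had 6 reads in the ESC samples together and 652 in the NPC samples. The synaptic genes Snap25 and Syt1 had 23 and 0 reads in ESCs and 482 and 373 in NPCs, and were called higher with limma voom. The summed exonic level of the list was 88.7, 95.2 and 114 in the ESC replicates, where Stmn2 was highest with a mean of 49.3 and Tubb3 next with 41.3. In the NPC replicates it was 71.0, 59.0 and 67.3, with Tubb3 highest at a mean of 23.5.

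Of 8 astrocyte genes 2, Aldoc and Gja1, were tested on RPKM and called higher, beside 36.9% of all genes tested. Other cells also express both, and Gja1 passed the filter through NPCs only. In limma voom 4 were tested, 3 were called higher and 1 lower, beside 45.9% and 28.1% of all genes tested. Slc1a2, called higher, passed the read filter through NPCs only. The gene called lower was Aldh1l1, with 6200 reads in the ESC samples together and 120 in the NPC samples. Gfap had 11 and 20 reads, Aqp4 0 and 50, and S100b 0 and 10. The summed exonic level was 23.2, 24.2 and 28.3 in the ESC replicates, where Aldh1l1 was highest with a mean of 14.0, and 36.9, 33.8 and 37.3 in the NPC replicates, where Aldoc and Gja1 had means of 17.4 and 16.6.

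Of 8 oligodendrocyte lineage genes only Pdgfra, also a gene of mesenchymal cells, was tested on RPKM and called higher, and it passed the filter through NPCs only. Limma voom tested 8 and called 7 higher and 1, Mog, lower, beside 45.9% and 28.1% of all genes tested. Among the 7, 3 passed the read filter through NPCs only. The summed exonic level was 3.09, 2.48 and 1.95 in the ESC replicates and 29.1, 21.9 and 21.1 in the NPC replicates, with Pdgfra highest in NPCs at a mean of 17.7. The part of these cells in the results was not tested.

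The positions of the markers were set against the deposited NADs, 1769 in ESCs and 1447 in NPCs, each list holding only domains found in both of 2 experiments, without replicate values. The authors ran the analysis of reads at a resolution of 100 kb, so that smaller distances from the edge of a domain are not resolved. Of the 9 markers, 1 overlapped a NAD of ESCs and 2 a NAD of NPCs, beside 26.9% and 21.4% of 21597 genes with a position. Fabp7, at chr10:57784881-57788450 on GRCm38, lay within the NAD chr10:57099231-57800310 of ESCs, with a score of 0.0309, and within chr10:57299857-57799662 of NPCs, with a score of 0.0516. Its distance from the edge was 11.9 kb in ESCs and 11.2 kb in NPCs, under the resolution.

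Pou3f2, at chr4:22482780-22488366, overlapped no NAD of ESCs, the nearest being 12.3 kb away, and lay within the NAD chr4:22299956-24600660 of NPCs, with a score of 0.0384. In NPCs it was 183 kb from the edge, whereas the gap in ESCs is under the resolution, so a difference between the cell types is not resolved. Sox1, at chr8:12395295-12400126, lay outside NADs of NPCs by 0.0130 kb, also under the resolution, and was 2796 kb from the nearest NAD of ESCs. The other markers lay between 97.9 and 5229 kb from the nearest NAD of ESCs and between 134 and 5230 kb from that of NPCs. The 97.9 kb, measured for Prom1, is also under the resolution. Changes in position were not tested, since the lists give no replicates.

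Promoter sequences were looked up for the 9 genes in the RefSeq table of GRCm38.p6, in which 7 had an entry. Both strands of the 250 bases before the annotated start were searched for the SOX cores ACAAAG and ACAATG, the POU octamer ATGCAAAT, the nuclear receptor half-site AGGTCA, the CSL core TGGGAA, the E-box CANNTG, the GC box GGGCGG and TATAAA. Of 32851 promoters, 16.5%, 10.7%, 1.60%, 14.0%, 21.6%, 66.2%, 32.7% and 12.4% held these motifs in this order. Sox3 and Msi1 had no entry. Neither SOX core nor the octamer was found in the entries of these genes. Pou3f2, Pou3f3 and Fabp7 are shown because their fold of mean RPKM was largest, and Nes because its mean RPKM was highest in NPCs. Slc1a3 held 1 E-box, 1 GC box and 1 TATAAA, and Sox1 held 3 GC boxes. For Prom1, 1 entry held 1 CSL core, 1 E-box and 1 GC box, and the other held no match. Pou3f2 and Pou3f3 held 1 GC box each and Nes held 2, while Fabp7 held 2 E-boxes and 1 nuclear receptor half-site, and Pou3f3 and Fabp7 held 1 CSL core each. The sequences below run 5′ to 3′ on the strand of the gene, stop before the start in both RefSeq and GENCODE M21, and have the matches in capitals. Matches are descriptions of letters and show no binding.
Pou3f2, chr4:22488367-22488616, minus strand: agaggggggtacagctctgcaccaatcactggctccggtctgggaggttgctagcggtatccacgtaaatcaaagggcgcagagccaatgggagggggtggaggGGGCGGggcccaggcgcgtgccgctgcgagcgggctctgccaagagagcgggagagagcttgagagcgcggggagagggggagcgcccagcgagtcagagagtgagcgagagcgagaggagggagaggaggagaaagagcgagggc
Pou3f3, chr1:42695518-42695767, plus strand: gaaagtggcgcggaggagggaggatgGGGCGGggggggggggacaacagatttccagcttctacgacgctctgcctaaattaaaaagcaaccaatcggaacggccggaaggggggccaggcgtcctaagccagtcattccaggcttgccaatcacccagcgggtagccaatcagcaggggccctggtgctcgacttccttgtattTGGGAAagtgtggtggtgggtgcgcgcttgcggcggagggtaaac
Nes, chr3:87970843-87971077, plus strand: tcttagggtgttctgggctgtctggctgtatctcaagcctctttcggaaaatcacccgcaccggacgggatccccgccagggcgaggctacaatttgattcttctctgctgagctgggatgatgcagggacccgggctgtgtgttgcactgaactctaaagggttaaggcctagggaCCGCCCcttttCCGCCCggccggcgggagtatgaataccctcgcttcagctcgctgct
Fabp7, chr10:57784673-57784880, plus strand: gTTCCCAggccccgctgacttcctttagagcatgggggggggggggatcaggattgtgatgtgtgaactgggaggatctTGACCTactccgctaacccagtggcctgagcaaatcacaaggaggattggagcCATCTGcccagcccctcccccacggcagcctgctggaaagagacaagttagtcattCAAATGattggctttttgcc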

How the data were processed

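RNAseq of 3 ESC and 3 NPC samples was used, grouped by the sample labels; ChIPseq was not used here. Per the methods, the authors used SortMeRNA against rRNA, Trimmomatic for trimming and STAR for alignment to mm10, and deposited RPKM values per gene; the submitters' processing notes also name Bowtie2 2.3.4.3 and Subread 1.4.6-p4. The methods name a stranded kit and the labels another; neither the annotation nor whether counting used strand is stated. The methods speak of exon coverage, whereas the deposited values were whole reads per gene span; 4 lengths (span and exon length, each with and without 1 base less) were searched in the same way. For NADs the authors deposited positions and a score per domain, called with Bowtie2, the damidseq pipeline at a resolution of 100 kb and find_peaks, and kept where common to 2 experiments.

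Of 22064 lines, those with the highest mean were kept for the 153 symbols on several lines. limma 3.58.1 in R 4.3.3 (lmFit, eBayes with trend) was run on log2(RPKM + 1), a scale that understates changes of low genes, for genes with at least 1 RPKM in at least 3 of 6 samples, with Benjamini-Hochberg adjustment and a threshold of 0.05. The fits were tested on simulated data with 50 genes changed per size. On log2(RPKM + 1) limma recovered 22 changes of 0.5 and 43 of 1, with 14 false calls in all. With limma voom these were 14 and 48, with 5 false calls, so small differences can be missed. Reads were recovered for 21454 symbols. Alternatives were pseudocounts of 0.1 and 0.01, other filters, TPM, median and quantile scaling, eBayes without trend, the replicate number as a block, which left the count of 6 markers called higher at 6, and each sample left out. Values per exon kilobase and limma voom on recovered reads (at least 10 reads in 3 samples) were added after seeing the data. Calls in the gene lists were counted in the fits on RPKM, per exon kilobase, with no filter and with limma voom; those on RPKM and with limma voom are printed, a choice made after all were seen, since the fit with no filter also called genes such as Sox14, with 4 and 0 reads. Intervals cover counting error only. Members and lists were chosen with earlier results of these data known. Named genes are the 9 markers, genes of the lists and, for each marker, the 2 tested genes with the smallest root mean square difference; overlapping transcripts were named after their positions were seen. Other steps ran in Python 3.11.15 (pandas 2.3.3, numpy 2.4.6, matplotlib 3.10.9, scipy 1.17.1).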

Additional observations from a re-analysis of the deposited data

How the results depend on the processing

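The 6 tested markers were fitted 101 times under the alternatives, and 100 of these fits kept the direction and an adjusted p under 0.05. The range of adjusted p was 3.69e-08 to 0.123 (limma, Benjamini-Hochberg). All are refits of the same samples, and most kept the same tested genes. Sox1, Sox3, Pou3f2 and Pou3f3 passed that filter through NPCs only, which sets their direction, so the count of fits is a description. The exception was Sox1 after quantile normalization, with a difference of 0.26, and the cause was not tested. Sox1 had a mean under 1 RPKM and was not fitted under that filter. With each sample left out in turn and the tested genes kept, log2 differences ranged over 2.78 to 2.88 for Nes, 1.41 to 1.57 for Msi1, 0.61 to 0.81 for Sox1, 2.79 to 3.05 for Sox3, 3.07 to 3.23 for Pou3f2, 2.17 to 2.35 for Pou3f3, 0.97 to 1.15 for Fabp7, 0.86 to 0.89 for Slc1a3 and 0.62 to 0.64 for Prom1. When the filter was applied again to 5 samples, 2 markers, Nes and Msi1, stayed in the test without any 1 NPC sample and 6 without any 1 ESC sample, because 3 samples must then reach 1 RPKM.

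Fabp7, Slc1a3 and Prom1 have differences of 1.06, 0.88 and 0.63 with no test. With a pseudocount of 0.1 these were 3.53, 2.74 and 2.29, with 0.01 they were 6.49, 3.87 and 3.48, and after TPM rescaling 3.73, 2.99 and 2.54; median scaling gave 0.91 for Slc1a3 and 0.66 for Prom1. With no filter they were tested and called higher at 1.06, 0.88 and 0.63, per exon kilobase at 2.03, 2.65 and 2.60, and with limma voom at 7.46, 4.09 and 3.74. Filtering by the mean, quantile normalization, eBayes without trend and the block could not be fitted for them.

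Of all genes, 2894 were called higher and 2606 lower. The counts were 7245 and 4209 with no filter, 5086 and 3499 per exon kilobase, 6673 and 4080 with limma voom, and 3521 and 1585 after TPM rescaling, where 69.0% of calls were higher against 52.6%. No filter, limma voom, values per exon kilobase and median scaling also moved this share up, to 63.3%, 62.1%, 59.2% and 59.0%, and it was 47.2% after quantile normalization, 49.0% when filtering by the mean and 49.9% without ESC replicate 3, where more genes were called lower than higher. Leaving out a sample gave 2517 to 3437 higher and 2093 to 3447 lower. TPM rescaling moved the median difference of all tested genes by 0.43, and differences on that scale are relative to that shift.

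With the replicate block, 6 markers were called higher and 2754 genes were higher and 2460 lower. Samples of the same number correlated in their deviations at 0.114, -0.0827 and 0.0323 for replicates 1, 2 and 3. Not every sample correlated best with its own number. Deviations from means of 3 samples cannot decide whether samples are paired, and the labels state no pairing. The block changed no call of a marker.

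Depth limits Fabp7 and Pou3f2 in ESCs, with 1 and 34 reads over the 3 samples. Groups of 3 replicates measure the spread between replicates of 1 differentiation scheme, and cell composition was not measured. The methods give paired-end or single-end reads for RNAseq without naming samples. They do not state whether ESC and NPC samples shared a library batch or run. Such a difference could not be told apart from cell type.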
